A study of Homo sapiens with 16 samples.

Results

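Start windows of 1733 microRNA (miRNA) genes were examined among the 210609 distinct autosomal windows of a table of ChIP-seq read counts. Each window spans 2000 bp, 1 kb to each side of an annotated transcript start. The members were the autosomal windows whose gene symbol begins with MIR and a digit, or with MIRLET7, and does not end in HG, which marks host genes. Each of the 1733 symbols had 1 window, and the other 208876 autosomal windows formed the comparison. The rule uses symbols and chromosomes and no read count.

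The study asked how loss of LEO1, a subunit of the PAF1 complex that travels with RNA polymerase II, affects chromatin in quiescent human fibroblasts. All libraries came from BJ-5ta, an established skin fibroblast line immortalized with telomerase (hTERT). Wild-type cells and ΔLEO1 cells, the latter a single clone made with CRISPR/Cas9, were grown in 10% serum or kept for 10 days in 0.1% serum, which stops division. Each of the 4 conditions had ChIP and input libraries A and B, 16 in all, and the input was chromatin sequenced without immunoprecipitation. The antibody is labelled H3 and is named in the methods as being against dimethylated lysine 9 of histone H3 (H3K9me2). These reads measure neither the LEO1 transcript nor any fibroblast marker transcript, so neither the knockout nor the cell type could be checked here. The labels do not say that A and B came from separate cultures, and p-values measure the spread between these libraries.

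The ChIP library A of ΔLEO1 in 10% serum held 50 reads in all distinct windows and 0 in miRNA windows, and was left out, so that this condition has 1 ChIP library. The other 7 ChIP libraries held 1895575 to 3266083 reads in distinct windows and the 8 inputs 2844490 to 7947304. A miRNA window received on average 10.0 to 17.7 reads in a ChIP library and 12.6 to 32.9 in an input, so single windows were measured with wide counting error. Levels below are CPM, the count in a window per 1000000 reads in the windows of a library, with library sizes scaled by TMM, the trimmed mean of M-values. CPM are relative within a library, and a shift of the mark across all windows cannot be seen in them. The study added Drosophila spike-in chromatin to its ChIP samples and scaled to it, which was not done here.

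A miRNA gene is transcribed as a long primary transcript, often from the promoter of a host gene, and a hairpin within it is cut out and trimmed to a mature RNA. Bases 2 to 8 of the mature RNA, the seed, choose its target transcripts, and miRNAs that share a seed form a family. H3K9me2 is written by the G9a and GLP methyltransferases, is abundant over silent genes and depleted at active promoters. The annotated start of a miRNA gene is the 5′ end of the hairpin and not the start of its primary transcript: of 1410 members with a hairpin in RefSeq (GRCh38.p14), 1403 had the window centre within 1 base of that end. The windows therefore describe chromatin over hairpins, and a hairpin can lie far from the promoter that drives it.

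The mature sequences below belong to the members on which the results turn, taken from RefSeq (GRCh38.p14) and written 5′ to 3′ with the seed in capitals. Of the 1733 member symbols, 1567 had a mature sequence there. The first set shares the seed of the embryonic miR-302 and miR-372 families, and is shown because its genes lay in 3 clusters with unlike ChIP levels.
hsa-miR-302a-3p: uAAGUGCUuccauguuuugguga
hsa-miR-302b-3p: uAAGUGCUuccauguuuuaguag
hsa-miR-372-3p: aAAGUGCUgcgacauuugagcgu
hsa-miR-373-3p: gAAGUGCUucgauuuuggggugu
hsa-miR-520b-3p: aAAGUGCUuccuuuuagaggg

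The second set shares the seed of miR-17, a family that promotes proliferation, and is shown because its members were low in 2 clusters and high in another.
hsa-miR-17-5p: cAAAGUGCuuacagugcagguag
hsa-miR-20a-5p: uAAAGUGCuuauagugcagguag
hsa-miR-93-5p: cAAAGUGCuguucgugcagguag
hsa-miR-106b-5p: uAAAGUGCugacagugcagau
hsa-miR-519d-3p: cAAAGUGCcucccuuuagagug
hsa-miR-526b-3p: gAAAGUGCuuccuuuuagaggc

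The third set holds let-7 RNAs, a family that restrains proliferation and favours differentiation, whose genes were called both higher and lower in ChIP.
hsa-let-7a-5p: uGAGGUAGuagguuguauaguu
hsa-let-7b-5p: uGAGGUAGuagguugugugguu
hsa-let-7c-5p: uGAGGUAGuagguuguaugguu
hsa-let-7d-5p: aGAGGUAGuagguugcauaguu

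The fourth set comes from windows with the highest ChIP over input, each with a seed of its own within the set.
hsa-miR-663b: gGUGGCCCggccgugccugagg
hsa-miR-1247-5p: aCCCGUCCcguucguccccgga
hsa-miR-7-5p: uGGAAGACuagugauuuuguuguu
hsa-miR-134-5p: uGUGACUGguugaccagagggg
hsa-miR-622: aCAGUCUGcugagguuggagc
hsa-miR-127-3p: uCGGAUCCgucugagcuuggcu
hsa-miR-382-5p: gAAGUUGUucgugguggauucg

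The fifth set holds miRNAs known for their abundance in fibroblasts, whose windows were low. It is part of a list of fibroblast and mesenchymal miRNAs, of which 31 were tested. Of these, 19.4% were higher in ChIP and 48.4% lower, and MIR31 and MIR10B went the other way.
hsa-miR-21-5p: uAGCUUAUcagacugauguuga
hsa-miR-145-5p: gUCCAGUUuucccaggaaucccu
hsa-miR-199a-5p: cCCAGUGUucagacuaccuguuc
hsa-miR-23a-3p: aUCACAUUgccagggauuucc

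The last set comes from the windows called between genotypes or between sera.
hsa-miR-515-5p: uUCUCCAAaagaaagcacuuucug
hsa-miR-646: aAGCAGCUgccucugaggc
hsa-miR-4421: aCCUGUCUguggaaaggagcua
hsa-miR-6500-5p: aGGAGCUAuccacuccaggugucc
hsa-miR-6728-5p: uUGGGAUGguaggaccagagggg
hsa-miR-3677-3p: cUCGUGGGcucuggccacggcc
hsa-miR-203b-3p: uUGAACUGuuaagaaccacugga
hsa-miR-3147: gGUUGGGCagugaggaggguguga
hsa-miR-2116-5p: gGUUCUUAgcauaggaggucu
hsa-miR-8073: aCCUGGCAgcagggagcgucgu
hsa-miR-6730-5p: aGAAAGGUggagggguugucaga

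The first question was whether miRNA windows carried more of the mark than other start windows. Whether they did depended on how the other windows were counted. With every distinct window counted, the mean number of reads in a miRNA window divided by that in another window was 1.13 to 1.17 in the 7 ChIP libraries and 0.902 to 0.979 in the 8 inputs. The means were 1.15 ± 0.0147 (SD, n = 7) and 0.951 ± 0.0256 (SD, n = 8), a difference of 0.199 (exact permutation test, two-sided, p = 0.000311, the smallest this design allows, adjusted p = 0.000673 over 13 such comparisons). With 1 window kept per locus in both groups, so that overlapping windows of alternative transcripts counted once, the order turned. The ratio was then 0.942 to 0.958 in ChIP and 0.975 to 1.01 in input, a difference of -0.0417 (exact permutation test, p = 0.000311). Genes with many annotated starts carry more weight in the first of these counts.

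Classes of genes placed the miRNA windows between protein-coding and long noncoding RNA (lncRNA) windows. ChIP over input is given here as the CPM summed over a class in a ChIP library, divided by the mean of the 2 inputs of the same genotype and serum. The miRNA windows reached 1.21 to 1.27 over the 7 ChIP libraries. All other windows reached 1.01 to 1.03, protein-coding windows 0.806 to 0.835 and lncRNA windows 1.27 to 1.40. With 1 window per locus, 1553 miRNA windows had a mean of 1.22 ± 0.0248 (SD, n = 7), protein-coding windows 1.04 ± 0.0196, all other windows 1.27 ± 0.0373 and lncRNA windows 1.40 ± 0.0587. The miRNA windows lay above the protein-coding windows in 7 of 7 libraries, by 0.182 ± 0.0325 (SD), and below the lncRNA windows in 7 of 7, with a difference of -0.184 ± 0.0351. They lay below all other windows counted once per locus in 7 of 7, with a difference of -0.0542 ± 0.0159. Each of these 3 differences had p = 0.0156 by an exact paired permutation test over libraries, two-sided, the smallest that 7 libraries allow, and adjusted p = 0.0179 over 8 class comparisons. Windows of small nucleolar RNA (snoRNA) genes, also compared, had a mean of 1.12 ± 0.0803 (SD, n = 7) with 1 window per locus. The miRNA windows lay above them in 6 of 7 libraries, by 0.0987 ± 0.0672 (SD, exact paired permutation test, p = 0.0313, adjusted p = 0.0313). The libraries of a condition share their inputs and are not fully independent in this test.

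**Figure D1:**
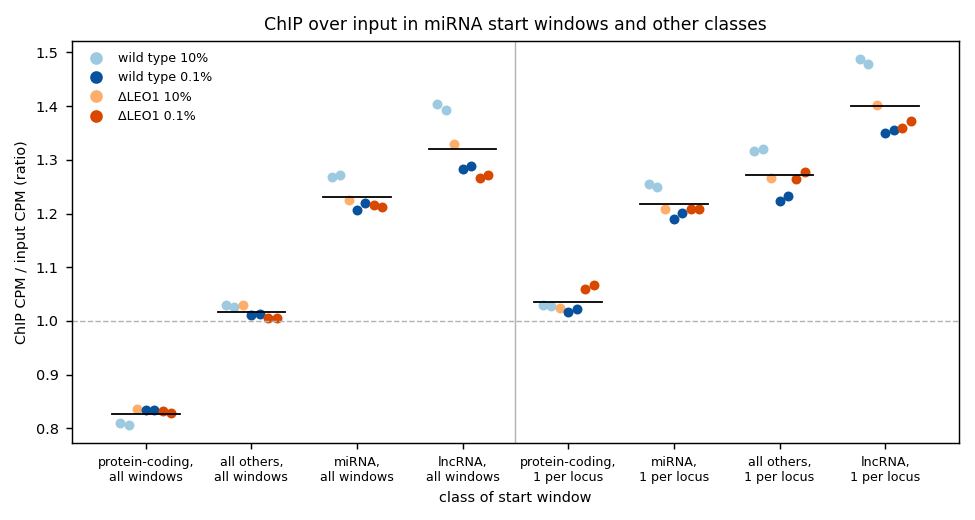
ChIP CPM divided by input CPM (ratio, vertical axis) for classes of start windows, with every distinct window on the left and 1 window per locus on the right. Points are the 7 ChIP libraries coloured by genotype and serum, and bars are means. The miRNA windows lie above the protein-coding windows on both sides, and on the right they lie below all others, with means of 1.22 and 1.27.

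Window by window, ChIP over input was tested with edgeR's quasi-likelihood test in 1 fit of 15 libraries, with Benjamini-Hochberg adjustment over 206148 windows. Of 1733 members, 1625 had enough reads to be tested and 108 did not, and 75 had no read in any of the 15 libraries. Of the 1625, 786 (48.4%) were higher in ChIP than in input, where 36.4% of all windows tested were, and 456 (28.1%) were lower, where 38.7% of all were. The median log2 ChIP over input was 0.37 for members and -0.04 for all windows tested. Among other windows counted once per locus, 49.5% were higher and 23.3% lower with a median of 0.40, close to the member values of 47.9%, 28.0% and 0.36 counted the same way. TMM assumes that most windows do not differ, and library totals in its place moved the median of all windows to -0.15 and that of the members to 0.25.

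The level in a member window moved with its distance from the nearest start of another gene. The 353 members within 500 bp of such a start had a median log2 ChIP over input of -0.62, with 79 of 323 tested windows higher and 181 lower. The 456 members at 10000 to 100000 bp had a median of 0.80, with 326 of 440 higher and 25 lower, and the medians of the 4 bins in order up to 10000 bp were -0.62, -0.34, 0.10 and 0.37. In all, 710 members (41.0%) had a window that overlapped the window of another gene and so shared reads with it. Their density relative to the other windows was 0.845 to 0.911 in ChIP and 0.941 to 0.983 in input, lower in ChIP by 0.0893. The 1023 members that overlapped no window of another gene reached 1.32 to 1.37 in ChIP and 0.860 to 0.998 in input, higher in ChIP by 0.398. Both differences had p = 0.000311 by the exact permutation test over 7 and 8 libraries.

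The position of the hairpin relative to gene bodies divided the members in the same manner. The 1110 members within the span of a protein-coding gene had a median log2 ChIP over input of 0.11. Of 1067 tested, 425 (39.8%) were higher and 364 (34.1%) lower, near the 36.4% and 38.7% of all windows. The 288 members within another kind of gene had a median of 0.73, with 155 (61.3%) higher and 50 (19.8%) lower of 253 tested. The 335 members in no annotated gene had a median of 0.76, with 206 (67.5%) higher and 42 (13.8%) lower of 305 tested. Only 19 members (1.10%) overlapped one of the 16092 peak regions of the study's second table by at least 1 bp, against 1.83% of the other windows, and these 19 included MIR128-2, MIR204, MIR433, MIR127, MIR517A and MIR519D.

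Members lying within 10 kb of each other were joined into clusters. This gave 30 clusters of 3 or more with 194 members, 103 pairs, and 1333 members alone. Clusters can be transcribed as 1 primary transcript. In 4 of the 30 clusters, with 13 members, no library had a read. These were 3 clusters of near-identical MIR3179 and MIR3180 copies and the MIR4539 to MIR4537 cluster, for which nothing can be said. The other 26 clusters ranged in mean ChIP over input from 0.198 to 2.80, and 5 clusters stood above 2, with values of at least 1.61 in each of the 7 libraries.

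**Figure D2:**
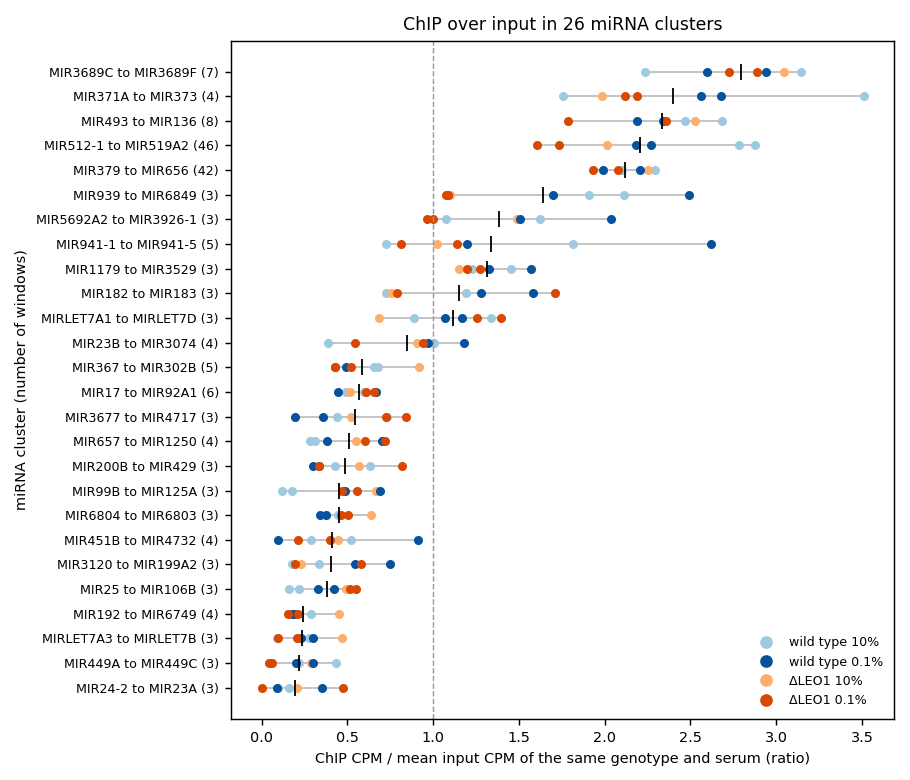
ChIP CPM over the mean input CPM of the same genotype and serum (ratio, horizontal axis) for the 26 miRNA clusters of 3 or more windows that had reads, with the number of windows in parentheses. Points are the 7 ChIP libraries, grey lines their range and black ticks their mean. The upper 5 clusters lie at 1.61 or above in every library and the lower 14 lie below 1 in every library.

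The cluster with the highest ratio was MIR3689C to MIR3689F on chromosome 9 (134848369 to 134851807), 7 windows over closely related hairpins whose reads may be split among them. Its ratio was 2.24 and 3.14 in the wild type in 10% serum, 2.59 and 2.94 in 0.1% serum, 3.04 in ΔLEO1 in 10% serum, and 2.73 and 2.89 in 0.1% serum. The values of the 4 conditions overlapped. All 7 of its windows were higher in ChIP than in input.

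The imprinted DLK1-DIO3 domain on chromosome 14, in which miRNAs are expressed from the maternal chromosome, held 2 of the 5 highest clusters. The MIR379 to MIR656 cluster (101021066 to 101067724) has 42 windows, 41 higher in ChIP and 0 lower. Many of its windows overlap and share reads, so these calls are not separate observations. Its ratio was 2.10 and 2.29 in the wild type in 10% serum, 2.21 and 1.99 in 0.1% serum, 2.25 in ΔLEO1 in 10% serum, and 2.08 and 1.93 in 0.1% serum, a mean of 2.12 ± 0.135 (SD, n = 7). This was a narrow spread, and genotypes did not separate. The nearby MIR493 to MIR136 cluster (100868060 to 100885702) had 8 windows, 7 of them higher, and a mean of 2.34 ± 0.289. Of the 52 miRNAs listed for the whole domain, known as C14MC, 49 were higher in ChIP, 0 lower and 3 not past the threshold, with log2 values from 0.06 to 1.77 and a median of 1.02 against -0.04 for all windows tested. MIR134, which acts in dendrites of neurons, had 11.2 to 15.1 CPM in the ChIP libraries and 2.75 to 5.55 CPM in the inputs. Its log2 ChIP over input was 1.77 ± 0.148 (SE, edgeR adjusted p = 1.90e-24). MIR127 lies opposite the retrotransposon-derived gene RTL1, and had 12.1 to 16.6 CPM in ChIP and 2.85 to 5.75 CPM in input. These ranges do not overlap, and its log2 value was 1.76 ± 0.148 (SE, adjusted p = 2.18e-24).

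On chromosome 19 lie C19MC, a primate-specific cluster known for expression in placenta, and the embryonic MIR371A to MIR373 cluster. C19MC (MIR512-1 to MIR519A2, 53665679 to 53763344) was the largest cluster with 46 windows, of which 45 were higher in ChIP and 0 lower, with a median log2 of 1.13. The remaining window was at -0.21. C19MC holds repeated genes, such as MIR515-1 and MIR515-2 with the same mature RNA, and how multiply mapped reads were treated is not known. Reads may therefore be shared among its windows, and these calls may not be separate observations. The MIR371A to MIR373 cluster (53786675 to 53789705) had all 4 windows higher and ratios of 1.76 to 3.51, the latter extremes both in wild-type libraries in 10% serum. MIR371A, MIR371B and MIR372 overlap nearly whole and count largely the same reads.

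Other clusters lay below 1 in every library. The lowest was MIR24-2 to MIR23A on chromosome 19 (13835359 to 13837659), with ratios from 0 to 0.474 and a mean of 0.198 ± 0.164 (SD, n = 7), and all 3 windows were lower in ChIP. MIR449A to MIR449C on chromosome 5 (55169622 to 55173353), within CDC20B and known for its role in multiciliated cells, had a mean of 0.220 ± 0.138. MIRLET7A3 to MIRLET7B on chromosome 22 (46111749 to 46114686) had a mean of 0.238 ± 0.130. In each of these 3 clusters every window was lower in ChIP than in input. The MIR17 to MIR92A1 cluster on chromosome 13 (91349605 to 91352314) had ratios of 0.445 to 0.665, and all 6 of its windows were lower. The MIR367 to MIR302B cluster on chromosome 4 (112646941 to 112649557) had ratios of 0.425 to 0.918, with 2 of 5 windows lower and 3 not past the threshold. The MIRLET7A1 to MIRLET7D cluster on chromosome 9 (94174957 to 94179834) straddled 1 with ratios of 0.684 to 1.40, and 1 of its 3 windows was higher.

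Of 14 seed families of 6 or more members, 6 held windows called in both directions, 6 held higher calls alone and 2 held lower calls alone, beside the shares of 36.4% higher and 38.7% lower over all windows. The first 3 families described here were called in both directions. The miR-302 and miR-372 seed AAGUGCU was found in 12 members, of which 8 were higher in ChIP, 2 lower and 2 not past the threshold. MIR302B, MIR302C, MIR302D and MIR302A on chromosome 4 had log2 values of -0.63, -0.51, -0.40 and -0.35. MIR372 and MIR373 had 1.32 and 0.99, and the 5 C19MC members, MIR520A, MIR520B, MIR520C, MIR520D and MIR520E, had 0.97 to 1.55. The miR-17 seed AAAGUGC was found in 6 members, with MIR106B at -1.21, MIR93 at -1.12, MIR17 at -0.58 and MIR20A at -0.54, all lower, and the C19MC genes MIR526B at 1.25 and MIR519D at 1.46, both higher. The let-7 seed GAGGUAG was found in 12 members, 4 higher and 6 lower. Among them MIRLET7I had the lowest value, -2.22 ± 0.269 (SE), and MIRLET7C the highest, 1.33 ± 0.159, and the 3 genes that make the same mature let-7a, MIRLET7A3, MIRLET7A1 and MIRLET7A2, had -1.49, 0.04 and 0.65. The miR-15 and miR-16 seed AGCAGCA, of a family that slows the cell cycle, was found in 7 members, 5 lower and 0 higher. Its median was -1.18. The 11 members with the seed UCUAGAG all lie within C19MC and all were higher, from 0.85 to 1.40. They may share reads, as stated for that cluster.

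**Figure D3:**
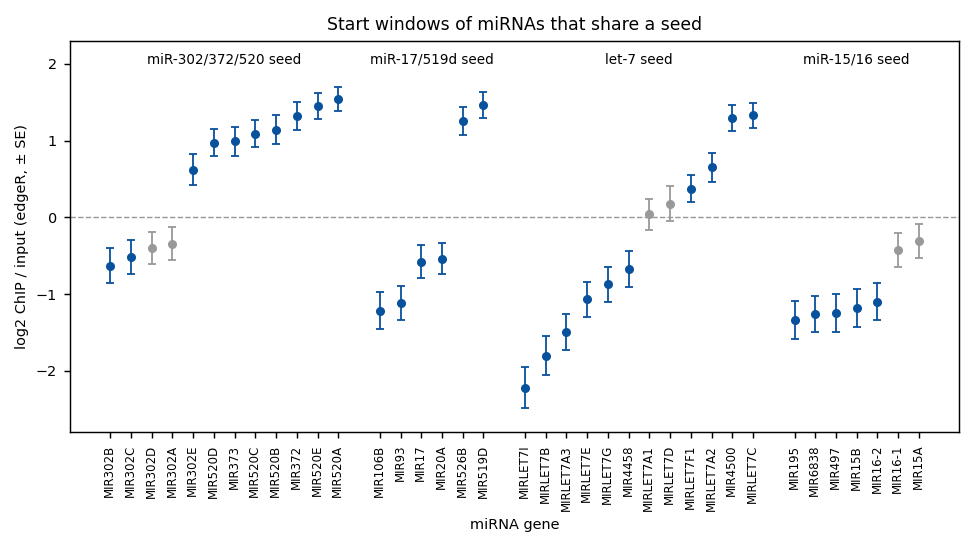
Log2 ChIP over input from edgeR (vertical axis, ± SE from 15 libraries) for members of 4 seed families, ordered within each family. Blue points passed an adjusted p-value of 0.05 and grey points did not. Within the let-7 seed the values run from -2.22 to 1.33, and in the miR-302 and miR-17 seeds the genes on chromosome 19 lie above 0.

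The 10 members with the largest called log2 ChIP over input were MIR663B, MIR1247, MIR7-3, MIR134, MIR622, MIR127, MIR4283-2, MIR382, MIR4450 and MIR3914-2, from 2.01 to 1.73. The windows of MIR134 and MIR382 overlap over most of their length and share reads, so they are not separate observations. MIR663B, within ANKRD30BL, had 6.72 to 20.0 CPM in ChIP and 2.31 to 5.02 CPM in input (log2 2.01 ± 0.153 SE, edgeR adjusted p = 3.59e-28). It belongs to a repeated family whose reads may be shared with copies. MIR7-3, a gene for the neuroendocrine miR-7, had 12.6 to 19.2 CPM in ChIP and 3.14 to 5.55 CPM in input (log2 1.80 ± 0.143 SE, adjusted p = 1.40e-26). MIR622 had 6.72 to 20.9 CPM in ChIP and 3.45 to 5.36 CPM in input. In each of these 3 windows the lowest ChIP library lay above the highest input. MIR4283-2 had no more than 6.62 CPM in any ChIP library and at most 1.51 CPM in the inputs, so that its high value rests on few reads.

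The 5 lowest called members were MIR3661, MIR1181, MIR3652, MIR6850 and MIR7845, which lie within the spans of PPP2CA, CDC37, HSP90B1, RPL8 and KLF7 respectively, with the start of another gene at most 214 bp away. MIR3661 had 0 to 1.31 CPM in ChIP and 5.18 to 8.43 CPM in input (log2 -3.07 ± 0.283 SE, edgeR adjusted p = 3.13e-21). MIR1181 had 0 to 0.871 CPM in ChIP and 5.34 to 7.47 CPM in input (log2 -2.96 ± 0.283 SE). ChIP and input ranges of both lay far apart, and these windows share most of their reads with the window of the neighbouring start.

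Lists of miRNAs by tissue are read against the 48.4% of members called higher and 28.1% called lower, and against the 36.4% and 38.7% of all windows. Of 32 miRNAs known from fibroblasts and mesenchyme, 31 were tested, 6 were higher in ChIP, 15 lower (19.4% and 48.4%) and 10 not past the threshold, with a median log2 of -0.27. MIR21, a miRNA abundant in fibroblasts that lies within VMP1, had 0 to 1.84 CPM in ChIP and 3.56 to 6.27 CPM in input, with log2 -2.48 ± 0.308 (SE, edgeR adjusted p = 2.13e-13). MIR145, known from smooth muscle and myofibroblasts, had 0.436 to 2.51 CPM in ChIP and 3.83 to 6.47 CPM in input, with log2 -1.70 ± 0.255. MIR199A1 was at -1.51 ± 0.221 and MIR214 at -0.97 ± 0.230, both lower. MIR29A, which represses collagen genes, had -0.27 ± 0.191 and did not pass the threshold (adjusted p = 0.192). MIR31 and MIR10B went the other way, with 1.20 and 0.85, both higher.

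The 9 genes of the miR-17/92 clusters were all lower, with log2 values from -1.21 to -0.54, and 10 let-7 genes were 3 higher and 5 lower. Of 13 miRNAs tied to p53 and stress, 12 were tested, 3 higher and 5 lower, with a median of -0.12. MIR34A, a p53 target, had 0.23 ± 0.200 (adjusted p = 0.290), whereas MIR34B and MIR34C had 1.34 and 1.01, both higher, in windows that overlap. The p53 and let-7 lists held calls in both directions, and the miR-17/92 list lower calls alone.

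Among miRNAs of other cell types, 12 of 21 neural miRNAs were higher and 3 lower (median 0.49), 5 of 9 muscle miRNAs higher and 1 lower (median 0.47), and 4 of 8 blood miRNAs higher and 3 lower (median 0.55). Of 14 epithelial and liver miRNAs, 5 were higher and 5 lower (median 0.30), and of 9 pluripotency miRNAs 4 higher and 2 lower (median -0.35). The share higher was 55.6% for muscle and 50% for blood miRNAs, near that of all members, and 35.7% for epithelial and liver miRNAs, near that of all windows. MIR206, a skeletal muscle miRNA, was at 0.91 ± 0.180, MIR122 of liver at 0.87 ± 0.174 and MIR142 of blood cells at 1.09 ± 0.176, all higher. MIR200C, which maintains epithelial identity, was at -1.64 ± 0.276 and lower. MIR124-1, a neuronal miRNA, had 0.19 ± 0.222 and MIR375 of pancreatic islets -0.13 ± 0.188, and neither passed the threshold (adjusted p = 0.431 and 0.544). The neural genes MIR124-2 and MIR128-2 were higher, with 1.67 and 1.69, in a list where 57.1% of tested members were higher and 14.3% lower. Of the scattered miR-548 family, which arose from a transposable element, 49 of 63 tested genes were higher and 3 lower (median 0.78). Of the miR-1302 family, 4 of 6 tested genes were higher and 0 lower (median 0.46).

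**Figure D4:**
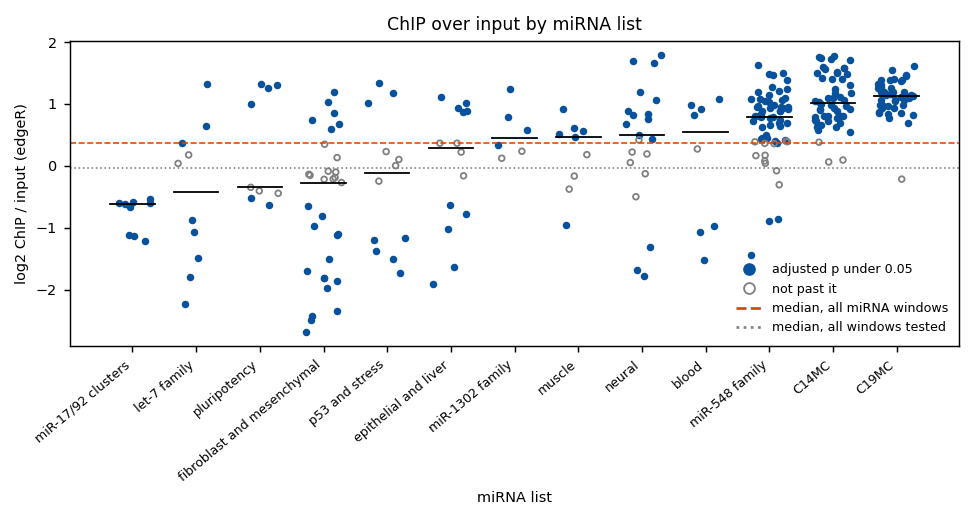
Log2 ChIP over input from edgeR (vertical axis) for each tested member of 13 miRNA lists, ordered by list median (black bars). Filled points passed an adjusted p-value of 0.05 and open points did not, the dashed line is the median of 1625 miRNA windows (0.37) and the dotted line that of all windows tested (-0.04). C14MC and C19MC lie almost wholly above both lines, and the miR-17/92 clusters below both.

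The next question was whether miRNA windows differed between ΔLEO1 and wild-type cells in 0.1% serum. The ratio of miRNA to other windows in ChIP was 1.17 and 1.16 in ΔLEO1 and 1.15 and 1.16 in the wild type. These values overlapped, with a difference of 0.00715 (exact permutation test, p = 0.667, where 2 against 2 libraries cannot go below 0.333). Of 1259 members tested with edgeR in a fit of 7 ChIP libraries, 8 were called after Benjamini-Hochberg adjustment over 140885 windows, 2 higher and 6 lower in ΔLEO1. This is 0.635% of the members, and 0.365% of all windows were called. After spike-in scaling, the study reported far more start regions with raised than with reduced H3K9me2 in ΔLEO1 in this serum. The calls here use another scaling, so their number and direction are not a like comparison with that result. With the totals of the peak table as library sizes, which raised the median of all windows by 0.28, 24 members were higher and 1 lower, 1.84% of 1356 members, where 1.46% of all windows were called. The median log2 difference was 0.00 in members and in all windows tested. DESeq2, the 8 ChIP libraries together and a fit of ChIP over input with all 15 libraries each called 0 members, so the 8 calls below rest on this test. Of all windows, DESeq2 and the 8 libraries together called 0 as well, and the fit of ChIP over input called 3 higher and 21 lower. The 8 calls also rest on each of the 4 libraries compared. Without any 1 of them, which leaves 1 library on that side, fewer members and fewer of all windows were called.

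**Figure D5:**
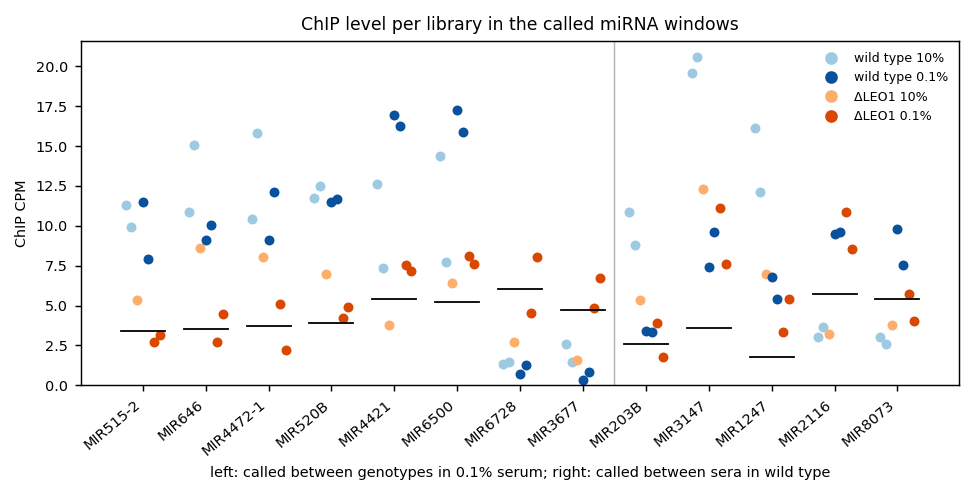
ChIP level (CPM, vertical axis) in the 7 ChIP libraries for the 8 windows called between genotypes in 0.1% serum and the 5 called between sera in the wild type. Points are libraries coloured by genotype and serum, and black bars are the mean of the 8 inputs. On the left, 6 of the 8 windows hold dark blue points above the dark orange ones, and MIR6728 and MIR3677 the reverse.

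Among the 6 lower windows, 2 belong to C19MC, whose windows may share reads. MIR515-2 (chromosome 19, 53684009 to 53686009) had 11.5 and 7.93 CPM in the wild type and 2.71 and 3.14 CPM in ΔLEO1 in 0.1% serum. The groups did not overlap, and log2 ΔLEO1 over wild type was -1.54 ± 0.335 (SE, adjusted p = 0.00630). In 10% serum it had 11.3 and 9.93 CPM in the wild type and 5.36 CPM in ΔLEO1. MIR520B (53700227 to 53702227), which carries the AAGUGCU seed shown above, had 11.5 and 11.7 CPM in the wild type and 4.22 and 4.93 CPM in ΔLEO1 in 0.1% serum, with log2 -1.23 ± 0.298 (SE, adjusted p = 0.0247). Input at the 2 windows did not pass the threshold between genotypes, with log2 values of 0.47 and 0.05.

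The other 4 lower windows lie elsewhere in the genome. MIR646 (chromosome 20, 60307474 to 60309474), within its host MIR646HG, had 9.14 and 10.0 CPM in the wild type and 2.71 and 4.48 CPM in ΔLEO1 (log2 -1.29 ± 0.326 SE, edgeR adjusted p = 0.0326). MIR4472-1 (chromosome 8, 142175339 to 142177339) had 9.14 and 12.1 CPM against 5.12 and 2.24 CPM (log2 -1.25 ± 0.311 SE, adjusted p = 0.0308). MIR4421 (chromosome 1, 51058837 to 51060837) had 16.9 and 16.3 CPM against 7.53 and 7.17 CPM (log2 -1.09 ± 0.250 SE, adjusted p = 0.0125). MIR6500 begins slightly further on and counts largely the same reads, with 17.3 and 15.9 CPM against 8.13 and 7.62 CPM, so these 2 calls are 1 observation. In all 4 windows both wild-type libraries lay above both ΔLEO1 libraries.

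The 2 higher windows had very few reads in the wild type. MIR6728 (chromosome 1, 8865590 to 8867590), within the enolase gene ENO1, had 2 and 3 reads in the wild type and 15 and 18 reads in ΔLEO1 in 0.1% serum. The ratio of summed CPM was 6.36, with an exact 95% interval of 2.47 to 20.9 that covers counting error only. MIR3677 (chromosome 16, 2269713 to 2271713), within MIR3677HG, had 1 and 2 reads in the wild type and 16 and 15 in ΔLEO1, a ratio of 9.96 with an interval of 3.11 to 50.9. Their edgeR log2 values, drawn towards 0 by the prior count, were 1.99 ± 0.491 (SE, adjusted p = 0.0292) and 2.25 ± 0.525 (adjusted p = 0.0154). Even the ΔLEO1 levels, 4.52 and 8.07 CPM for MIR6728 and 4.82 and 6.72 CPM for MIR3677, were close to the mean input levels of 6.02 and 4.73 CPM.

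C19MC as a whole was lower in each ΔLEO1 ChIP library than in each wild-type library. Its ratio of ChIP to input was 2.78 and 2.87 in the wild type in 10% serum, 2.27 and 2.18 in 0.1% serum, 2.01 in ΔLEO1 in 10% serum, and 1.61 and 1.73 in 0.1% serum. The mean was 2.53 ± 0.351 (SD, n = 4) in the wild type and 1.78 ± 0.207 (SD, n = 3) in ΔLEO1, a difference of -0.743 (exact permutation test, p = 0.0571, the smallest for 3 against 4 libraries, adjusted p = 0.469 over 52 cluster comparisons). It therefore did not pass the threshold. The median log2 difference over the 46 windows was -0.36 in 0.1% serum and -0.48 in 10% serum, where that of all windows was 0.00 and -0.01. With the peak table totals the C19MC median was -0.09 against 0.28 for all windows, and in the fit of ChIP over input it was -0.37. Input in C19MC windows averaged 3.60 to 4.23 CPM per window in the wild type and 3.91 to 4.13 CPM in ΔLEO1, which overlap. For C14MC the median difference over 51 windows was -0.08 in 0.1% serum and -0.17 in 10% serum, with 28 and 32 windows below 0.

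Of the 26 clusters, 4 had ranges that did not overlap between the genotypes, where 9.88% of single windows did not overlap in the same ratio. A cluster sums the reads of 3 or more windows and has less counting error, so single windows are not a like comparison. Between the sera 2 clusters did not overlap, MIR493 to MIR136 and MIR367 to MIR302B, both lower in 0.1% serum, where 11.3% of single windows did not overlap. Besides C19MC, between the genotypes, MIR939 to MIR6849 on chromosome 8 was lower in ΔLEO1 (1.09 ± 0.0102, n = 3, against 2.05 ± 0.337, n = 4, SD), and MIR6804 to MIR6803 and MIR25 to MIR106B were higher (0.535 ± 0.0921 against 0.385 ± 0.0427, and 0.519 ± 0.0287 against 0.281 ± 0.115). None passed the correction over 52 comparisons (adjusted p = 0.469 each). In all, 12 clusters had a higher mean in ΔLEO1 and 14 a lower one, and 11 a higher mean in 0.1% serum and 15 a lower one.

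Serum was compared within each genotype. The ratio of miRNA to other windows in wild-type ChIP was 1.15 and 1.16 in 0.1% serum and 1.13 and 1.13 in 10% serum, and these did not overlap (difference 0.0248, exact permutation test, p = 0.333, the smallest possible). Over both genotypes the 4 ChIP libraries in 0.1% serum lay above the 3 in 10% serum by 0.0253 (exact permutation test, p = 0.0571, adjusted p = 0.0929 over 13). The inputs in 0.1% serum averaged 0.0276 above those in 10% serum and overlapped with them (exact permutation test, p = 0.143, adjusted p = 0.206). In the wild type alone the inputs did not overlap, with 0.970 and 0.961 in 0.1% serum and 0.932 and 0.902 in 10% serum, a difference of 0.0485 that exceeds the ChIP difference (exact permutation test, p = 0.333, the smallest possible). With 1 window per locus the ratio in ChIP overlapped, with 0.946 to 0.958 in 0.1% serum and 0.942 to 0.948 in 10% serum. ChIP over input of all miRNA windows ran the other way. It was 1.21 to 1.22 in the 4 libraries in 0.1% serum and 1.23 to 1.27 in the 3 in 10% serum. All other windows were also lower there, with 1.005 to 1.013 in 0.1% serum and 1.027 to 1.030 in 10% serum. The part of input in the ChIP difference was not tested.

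In wild-type cells 5 of 1259 members (0.397%) were called between 0.1% and 10% serum, 2 higher and 3 lower in 0.1% serum, and 0.26% of all windows were called. MIR3147 (chromosome 7, 57404025 to 57406025), which overlaps a peak region and lies 212 bp from the start of MIR3147HG, had 19.6 and 20.6 CPM in 10% serum and 7.45 and 9.61 CPM in 0.1% serum. Its log2 difference was -1.19 ± 0.239 (SE, edgeR adjusted p = 0.00198), the groups did not overlap, and ΔLEO1 had 12.3 CPM in 10% serum and 11.1 and 7.62 CPM in 0.1% serum. MIR203B (chromosome 14, 104116503 to 104118503), paired with the skin miRNA gene MIR203A, fell from 10.9 and 8.83 CPM to 3.38 and 3.34 CPM (log2 -1.35 ± 0.333 SE, adjusted p = 0.0294). MIR1247 (chromosome 14, 101559422 to 101561422), in DIO3OS at the far end of the imprinted domain, fell from 16.1 and 12.1 CPM to 6.77 and 5.43 CPM (log2 -1.09 ± 0.279 SE, adjusted p = 0.0421). Its centre is 2 bp from another start, and the reads cannot be told apart from that gene's.

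The 2 windows higher in 0.1% serum were those of MIR2116 and MIR8073. MIR2116 (chromosome 15, 59170262 to 59172262), within the myosin gene MYO1E, rose from 3.05 and 3.68 CPM to 9.48 and 9.61 CPM (log2 1.31 ± 0.338 SE, edgeR adjusted p = 0.0459). In ΔLEO1 it had 3.22 CPM in 10% serum and 10.8 and 8.52 CPM in 0.1% serum. MIR8073 (chromosome 13, 110339958 to 110341958), within the collagen gene COL4A2, rose from 3.05 and 2.57 CPM to 9.81 and 7.52 CPM (log2 1.42 ± 0.353 SE, adjusted p = 0.0310). In ΔLEO1 it had 3.75 CPM in 10% serum and 5.72 and 4.03 CPM in 0.1% serum. Without the filter on low counts 2 members were called. Of all windows, 78 were higher and 199 lower in that run, against 101 and 266 in the main fit. DESeq2, the 8 ChIP libraries together and the fit of ChIP over input called 0 members. Of all windows, they called 0, 4 lower and 1 higher, in that order. Without any 1 of the 4 wild-type ChIP libraries, which leaves 1 library on that side, fewer members and fewer of all windows were called.

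In ΔLEO1 cells 1 of 1259 members was called between sera, and 0.0667% of all windows were. This was MIR6730 (chromosome 1, 12578023 to 12580023), within the retinol enzyme gene DHRS3, with 0 reads in the single library in 10% serum and 18 and 14 reads in 0.1% serum, or 5.42 and 6.28 CPM. Against 3 counts in the empty library it was at least 3.64-fold higher in 0.1% serum (edgeR adjusted p = 0.0429). The wild type had 3.05 and 4.41 CPM in 10% serum and 3.05 and 4.59 CPM in 0.1% serum, which overlap. Without either ΔLEO1 library in 0.1% serum, or without wild-type library B in 10% serum, 0 members were called, and DESeq2 called 0. A comparison with 1 library on a side assumes that this library varies like those of the other groups.

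In 10% serum no member was called between the genotypes, and 0.0248% of all windows were. DESeq2 called no member after adjustment either. The 3 members with the smallest unadjusted p were MIR5688, MIR642A and MIR6730. MIR5688, within the adhesion gene CADM2, had 20.4 CPM in ΔLEO1 and 8.71 and 8.83 CPM in the wild type (log2 1.15 ± 0.315 SE, edgeR adjusted p = 0.118). MIR642A, within GIPR, had 7.51 CPM against 1.31 and 1.84 CPM (adjusted p = 0.178). MIR6730 had 0 reads in ΔLEO1 and was at least 2.32-fold lower against 3 counts (adjusted p = 0.183).

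The interaction asks whether the effect of genotype differed between the sera. No member and no other window was called by edgeR (background 0.0%) or by DESeq2. At an unadjusted p under 0.05, 63 of 1259 members passed with edgeR, and 5.54% of all windows. MIR642A, MIR642B and MIR6730 had the smallest p, each with an adjusted p of 0.440.

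Input was compared between genotypes in the same manner, since a difference there would enter any ChIP comparison. In 0.1% serum 0 of 1627 members were called by edgeR, as was no other window (0.0%), and 83 members (5.10%) and 5.21% of all windows passed an unadjusted p of 0.05. In 10% serum 0 members were called, 0.00194% of all windows were, and 98 members (6.02%) and 6.55% of all windows passed an unadjusted p of 0.05. DESeq2 called 0 members in both. Without the ΔLEO1 input library B in 10% serum, 13 members (0.798% of 1629) were called there, where 0.554% of all windows were. The ratio of miRNA to other windows in input was 0.932 and 0.902 in the wild type in 10% serum, 0.970 and 0.961 in 0.1% serum, 0.979 and 0.937 in ΔLEO1 in 10% serum, and 0.968 and 0.960 in 0.1% serum. The genotypes overlapped, with a difference of 0.0199 (exact permutation test, p = 0.314, adjusted p = 0.361 over 13).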

How the data were processed

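ChIP and input DNA of BJ-5ta fibroblasts were counted per window. The authors deposited raw read counts, whole numbers without scaling, for 272902 windows of 2000 bp around annotated starts and for 16092 merged peak regions. The submitters' processing notes name bcl2fastq 2.20.0.422, STAR 2.7.10a, HOMER, hg38 and dm6 without roles, and how duplicates and multiply mapped reads were treated is not given in the sources used here. Every value column was assigned to a library by its name. Coordinates are printed as the count table gives them.

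The members and miRNA lists were chosen with earlier results of these data known. Windows repeated for several transcripts were used once, by the first transcript. Counts were tested with edgeR 4.0.16 in R 4.3.3 (quasi-likelihood F-test, two-sided, filterByExpr with a minimum count of 10, TMM, prior count 2), with 1 coefficient per group in separate fits of 7 ChIP libraries, of 8 inputs, and of all 15 for ChIP over input. Adjustment over all windows tested followed Benjamini and Hochberg, with calls at adjusted p-values under 0.05. Log2 values are edgeR's, SEs were derived from its F statistic, and CPM used effective library sizes from the separate fits of ChIP and of input. Density ratios were compared with exact permutation tests over libraries.

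On simulated counts for the real windows, the ChIP comparison of genotypes in 0.1% serum (140885 windows) recovered 15 of 100 changes of 1 log2 unit and 71 of 100 of 2. The same genotype comparison in input (206484 windows) recovered 24 and 86, and ChIP over input (206148 windows) 64 and 99. False calls numbered 1, 3 and 8. Changes were placed only in windows with a mean fitted count above 10, and all other windows were set to no difference. For ChIP over input this is unlike the data, where most windows were called, and windows with fewer reads are not covered.

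Named members were all called members of a ChIP contrast, or the 3 with the smallest unadjusted p where none was called, the 10 largest and 5 smallest called values of ChIP over input, the 5 highest and 3 lowest clusters, 12 familiar miRNAs, and up to 4 members of each list with the most ChIP plus input reads. The last of these rules favours list members with high ChIP counts. Members named for a shared seed or for overlap with a peak region, C19MC comparisons and the other clusters whose genotype or serum ranges did not overlap were chosen after values were seen. Clusters joined member centres at most 10 kb apart. As alternatives, the filter was dropped, TMM was replaced by library totals, and edgeR by DESeq2 1.42.0. Others were the replicate letter as a block, every row of the table, peak table totals as library sizes, all 8 ChIP libraries, ChIP over input in 1 fit, and each library left out. Over all tested ChIP windows the differences between A and B correlated between conditions by 0.00313 to 0.0173, and over input windows by 0.0123 to 0.110, so letters were not treated as pairs between conditions. These correlations do not cover a ChIP library and the input of the same letter, which were compared unpaired.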

Additional observations from a re-analysis of the deposited data

Results flagged for a closer look

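For 4 named members ΔLEO1 lay beyond all wild-type ChIP libraries in one direction in 0.1% serum and in the other direction in 10% serum, where ΔLEO1 has a single library. The difference itself was tested as the interaction of genotype and serum, and none of the 4 passed after adjustment. The interaction, the log2 genotype difference in 0.1% serum minus that in 10% serum, was 3.07 for MIR6730, which had 0 reads in the ΔLEO1 library in 10% serum. It was -2.54 for MIR642A and -2.52 for MIR642B, whose windows overlap and share reads, and -1.06 for MIR8073.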

How the results depend on the processing

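Members higher in ChIP than in input ranged from 617 of 1625 with DESeq2 to 810 of 1625 with every row of the table. Of all windows, 58192 of 206148 and 86491 of 237580 were higher in these runs. Members lower ranged from 437 of 1624 without ΔLEO1 input library B in 10% serum to 506 of 1625 with library totals. Of all windows, 76264 of 205654 and 86675 of 206148 were lower there. With 1 window per locus, 47.9% of members and 49.5% of other windows were higher. The miRNA to other density difference between ChIP and input reversed to -0.0417 with 1 window per locus, whose construction gives genes with many starts less weight. The genotype difference of this ratio in 0.1% serum, itself within the spread of libraries, reversed to -0.00618 with 1 window per locus and to -0.000589 for members overlapping no other gene's window. Calls between ChIP libraries changed most. The 8 calls between genotypes in 0.1% serum became 25 with peak table totals as library sizes and 0 with DESeq2, with all 8 ChIP libraries and in the fit of ChIP over input, and 0 to 9 with 1 library left out. The 5 serum calls in the wild type became 2 without the filter, 0 under the same 3 alternatives, and 0 to 5 with 1 library left out. The single serum call in ΔLEO1 became 2 with peak table totals, 0 under those 3, and 0 to 1 with 1 library left out. Input calls between genotypes in 10% serum went from 0 to 13 without ΔLEO1 input library B. Over all windows DESeq2 also called 0 between genotypes in 0.1% serum and between sera in the wild type, so this loss was not particular to members. The cause of these changes was not tested. With the replicate letter as a block, which does not pair these libraries, 9, 5 and 1 members were called in those 3 ChIP comparisons, and 786 and 456 stayed the counts of ChIP over input. Values near 0 changed sign in ChIP over input. MIRLET7A1 was at -0.0757 without TMM, -0.15 with DESeq2 and -0.11 to 0.13 with 1 library left out, and MIR146B at -0.0105, -0.0365 and -0.0467 to 0.19. With 1 library left out MIR124-1 ranged from -0.0383 to 0.29 and MIR499A from -0.13 to 0.30. None of these 4 passed the threshold. A member received on average 10.0 to 17.7 reads in a ChIP library, and the part of depth in these changes was not tested.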
